A study of Homo sapiens with 9 samples.

Results

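P15 is 1 of 4 CRISPR-edited K562 clones that carry the P95H substitution in SRSF2, and it is represented by 1 of the 9 RNA-seq libraries. It is set here against the other P95H clones P9, P22 and P38, across 20344 genes that passed the filter on low counts. P15 was singled out because its values differ from those 3 clones in these same data, among them NOX5, SLC4A1, AQP1 and ALAS2 and the genes of chromosome 11. Every difference between P15 and the other P95H clones is therefore a description, and so are the counts of genes called in that contrast. The 4 WT clones (W19, W33, W36 and W42, wild-type SRSF2) were not used to choose P15, although the library of P15 itself was, so p-values of single genes are given against the WT clones only, and these reuse the same P15 library. The parental K562 library, also with wild-type SRSF2, is shown beside them. K562 is an erythroleukaemia line derived from chronic myeloid leukaemia, the labels name no treatment or time point, and each clone is 1 line with 1 library. P-values therefore measure the spread between clones, with P15 assumed to vary like the others, and the labels do not give the number of edited alleles or say whether clones arose from separate edits.

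Red cell precursors fill with haemoglobin under the control of factors such as GATA1, KLF1 and TAL1. In their last divisions they switch on heme synthesis, which starts with the enzyme ALAS2, and build a membrane of spectrin, ankyrin and band 3 (SLC4A1) with glycophorins, blood group proteins and the water channel AQP1. K562 cells hold part of this programme and make mostly embryonic and fetal globins, whose β-like genes lie on the short arm of chromosome 11.

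The bases just before the RefSeq start sites (GRCh38.p14) of marker genes that stand apart in P15 and lie off chromosome 11 are printed to show what these regions hold. SLC4A1 is missing because the promoter source used had no entry for it. Each run has 250 bases, 5′ to 3′ on the strand of the gene, and ends at the base before the start. Capitals mark a match to a word searched on both strands. The GATA factor words were AGATAA, also TGATAA, then AGATAG and lastly TGATAG, and the word of KLF factors was CCACACCC. Matches to different words may overlap. The intervals are chr15:69014445-69014694 on the plus strand for NOX5, chr7:30911603-30911852 on the plus strand for AQP1 and chrX:55030978-55031227 on the minus strand for ALAS2.
NOX5: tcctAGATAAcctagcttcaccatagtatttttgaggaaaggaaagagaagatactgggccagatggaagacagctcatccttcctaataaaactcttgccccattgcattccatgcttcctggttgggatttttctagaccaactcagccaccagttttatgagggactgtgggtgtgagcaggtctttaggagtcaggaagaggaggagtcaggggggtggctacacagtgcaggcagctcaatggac
AQP1: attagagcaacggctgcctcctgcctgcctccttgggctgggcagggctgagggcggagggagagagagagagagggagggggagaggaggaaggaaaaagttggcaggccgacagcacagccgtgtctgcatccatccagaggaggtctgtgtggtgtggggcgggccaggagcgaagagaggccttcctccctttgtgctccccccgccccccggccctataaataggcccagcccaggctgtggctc
ALAS2: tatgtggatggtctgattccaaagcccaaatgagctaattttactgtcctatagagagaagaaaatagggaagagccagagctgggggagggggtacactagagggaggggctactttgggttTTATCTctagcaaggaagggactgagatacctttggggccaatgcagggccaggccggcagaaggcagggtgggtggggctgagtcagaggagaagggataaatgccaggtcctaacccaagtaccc
NOX5 holds AGATAA and ALAS2 holds its reverse complement TTATCT, while no searched word is in this window of AQP1. Of 35093 promoters of the same length, 9.17% hold AGATAA on either strand, 22.3% hold at least 1 of the 4 GATA words and 2.97% hold CCACACCC. A match is a description of letters and does not show a bound site.

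The 9 libraries held 24546255 to 35477328 reads in genes, 32351553 of them in P15. At these depths 3 counts, used as the floor, equal 0.0846 to 0.122 CPM, with counting error alone in view. SRSF2 was at 456 CPM in P15, 444 to 578 CPM in the other P95H clones and 448 to 507 CPM in the WT clones. These counts cannot show the edited base. W33 and P22 had low limma-voom quality weights (0.188 and 0.572), while the weight of 1 for P15 has no second library of its group behind it. In a chi-square of counts per degree of freedom over pairs of libraries, W33 lay at 54.5 to 99.6 from the others, P15 at 43.8 to 93.9 and P22 at 48.7 to 99.2. Medians that move by over 1.5 times without P22 are given both ways. No libraries were identical. Erythroid markers of K562 such as GATA1 (214 to 428 CPM) and HBG2 (1102 to 3002 CPM) were present in every library.

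The markers for which P15 was chosen are given first. NOX5, a calcium-activated NADPH oxidase, was at 46.6 CPM in P15. It was at 0.918 CPM in P9, 1.58 CPM in P22 and 0.531 CPM in P38, and at 0.0641 to 1.67 CPM in the WT clones and 0.951 CPM in the parental line. The P15 value lay far outside all other libraries, while the genes on either side of NOX5 did not: ANP32A was at 249 CPM in P15, against 230 to 246 CPM across P9, P22 and P38. GLCE, on the other side, was at 12.7 CPM in P15, against 5.07 to 12.7 CPM in those clones. Of the other NADPH oxidase genes, CYBB was at 2.62 CPM in P15, against 0.531 to 1.16 CPM across P9, P22 and P38, and the median of 12 tested list members was a log2 difference of 0.02 (0.42 without P22). SLC4A1, the anion exchanger band 3 of the red cell membrane, was at 12.1 CPM in P15, 1.49 CPM in P9, 0.418 CPM in P22 and 1.33 CPM in P38. Its WT clones lay between 0.218 and 0.622 CPM. AQP1 was at 66.7 CPM in P15, 29.01 CPM in P9, 27.1 CPM in P22 and 24.6 CPM in P38, against 4.78 to 14.4 CPM in the WT clones. For AQP1 all 4 P95H clones lay above all WT clones, and P15 lay above the other 3. ALAS2 was at 726 CPM in P15, 190 CPM in P9, 137 CPM in P22 and 113 CPM in P38. Its WT values were 52.2 CPM in W19, 131 CPM in W33, 17.7 CPM in W36 and 20.3 CPM in W42. Reads of ALAS2 may not be told apart from those of APEX2, which overlaps it on the other strand.

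Against the WT clones, the fitted log2 difference was 4.89 (SE 0.62) for SLC4A1, 3.01 (SE 0.40) for AQP1, 6.09 (SE 0.98) for NOX5 and 3.74 (SE 0.78) for ALAS2. These 4 genes were picked for their level in the P15 library, which this comparison uses again, so the values are a description and no p-value is given. None of them was called by edgeR at an adjusted p (Benjamini-Hochberg, over all genes tested) of 0.05.

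Chromosome 11 was compared as a block. Genes are taken in GENCODE 29 order, and those up to ZFP91 are called before the border and those from OSBP on after it. Among 253 genes before the border that averaged 5 CPM or more, the median log2 CPM difference between P15 and the mean of the other P95H clones was 0.434 (1.35-fold), and 220 of the 253 lay above 0. After the border the median over 426 genes was -0.535 (0.690-fold), and 33 of the 426 lay above 0. The 11079 genes elsewhere had a median of 0.00483. The parental line and the WT clones, each compared with the mean of the other WT clones, had medians of -0.0553 to 0.118 before and -0.101 to 0.217 after the border. P9, P22 and P38, each compared with the other 2 so that P15 does not enter, had medians of -0.0734 to 0.0528 before and -0.0288 to 0.0114 after it. Against the mean of the WT clones the medians for P15 were 0.408 before, -0.559 after and 0.000754 elsewhere. The other chromosomes had P15 medians of -0.0777 (chromosome 13) to 0.0906 (chromosome 19), and the 21 mitochondrial genes had 0.215.

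**Figure D1:**
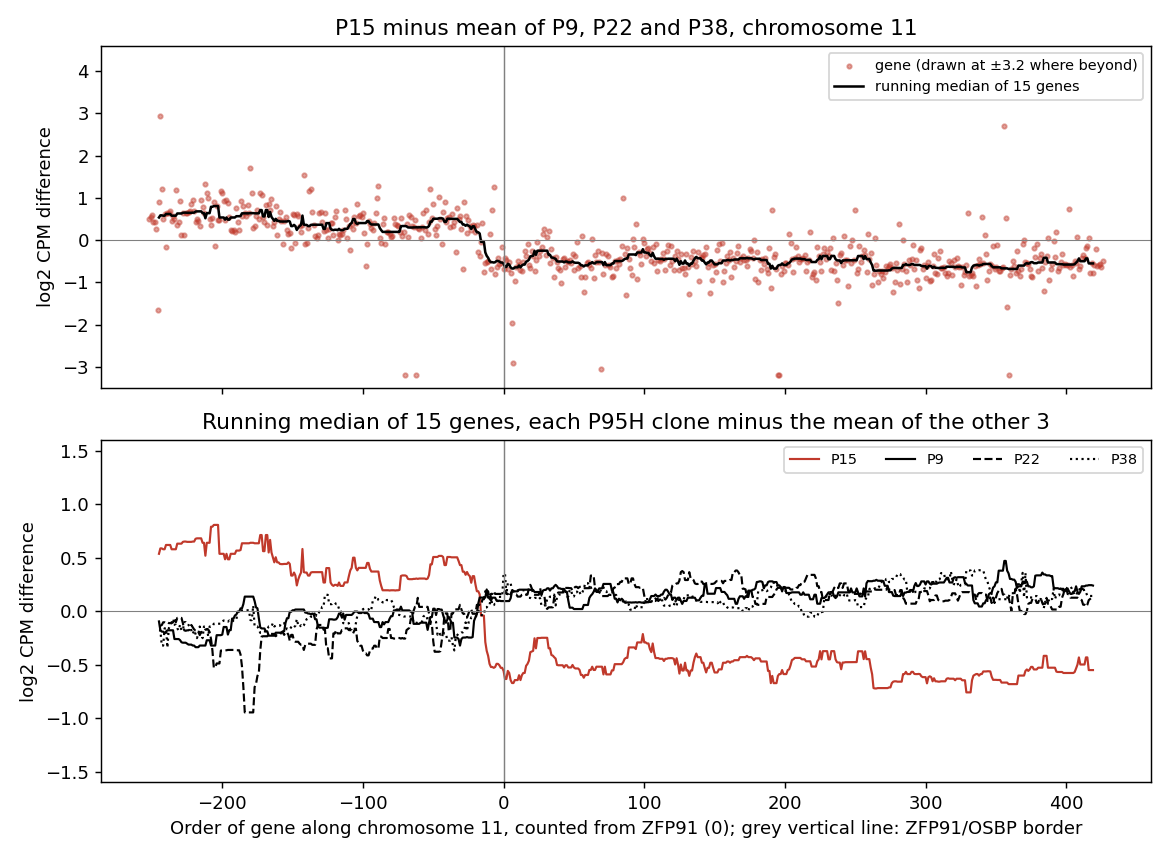
Chromosome 11 genes that averaged 5 CPM or more, in order from ZFP91 (0, the border); the y axes give log2 CPM differences. The upper panel shows P15 minus the mean of P9, P22 and P38 for each gene, with a running median of 15 genes, and the lower panel the running median of each P95H clone minus the mean of the other 3; the P15 line steps from above to below 0 short of the border, and the other 3 lines, whose reference includes P15, lie mostly on the opposite side of 0.

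The step in P15 lies before ZFP91 in these data. The single step with the smallest sum of absolute deviations over 679 genes falls between PTPRJ and AC135977.1, with a median of 0.454 over 234 genes up to PTPRJ and of -0.530 over 445 genes after it. Between this step and the border lie 19 genes up to and including ZFP91, of which 15 were below 0, with a median of -0.492. Near the border ZFP91 was at a log2 CPM difference of -0.687, SSRP1, a histone chaperone subunit, at -0.522 and ZDHHC5, a palmitoyltransferase, at -0.634. OSBP, the first gene after the border, was at -0.425. UBE2L6, a ubiquitin-like conjugating enzyme for ISG15, was at 0.706 in the same stretch. These positions were read from the same values and mark a gene order, not a mapped breakpoint. DNA copy number was not analysed here.

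Individual chromosome 11 genes far from their block are listed apart. CD3D, a T cell receptor chain, was at 1.08 CPM in P15 and at 14.4, 13.9 and 18.5 CPM in P9, P22 and P38. CCND1, cyclin D1, was at 2.07 CPM in P15 and 18.98, 48.6 and 23.4 CPM in the same clones. MYEOV, its neighbour, was at 2.90 CPM against 51.0, 45.3 and 35.8 CPM. P15 was the lowest of all 9 libraries for these 3 genes, which lie after the border. The same held for 387 of all 698 genes tested there. FERMT3, an integrin activator, was at 3.95 CPM in P15, against 15.6 to 82.0 CPM across P9, P22 and P38, a wide range in which P22 was highest. JAML, a junctional adhesion molecule, had no count in P15 and was at least 12.2-fold lower than the mean of the other P95H clones, at a floor of 3 counts per library; that mean came mostly from P22 (3.25 CPM).

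Before the border, HSD17B12, a ketoacyl reductase of fatty acid elongation, was at 2.81 CPM in P15 and 42.5, 38.8 and 28.8 CPM in P9, P22 and P38. The WT clones held 14.7 to 45.6 CPM, so P15 lay below every other library. The antisense gene AC087521.2 within the same locus was at 0.0617 CPM in P15, against 1.96 to 3.22 CPM in those clones. The next genes on either side, TTC17 (log2 0.48) and ALKBH3 (log2 0.29), were above 0 like the rest of the block. TRIM22, an interferon-stimulated antiviral gene, was at 8.37 CPM in P15, 0.842 CPM in P9, 1.64 CPM in P22 and 0.631 CPM in P38. ADM, adrenomedullin, was at 4.35 CPM against 0.804, 1.16 and 0.332 CPM in the same clones. DUSP8, a phosphatase of stress kinases, was at 2.32 CPM against 0.306, 0.298 and 0.697 CPM. All 3 were highest in P15 among the 9 libraries, as were 173 of all 403 genes tested before the border.

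**Figure D2:**
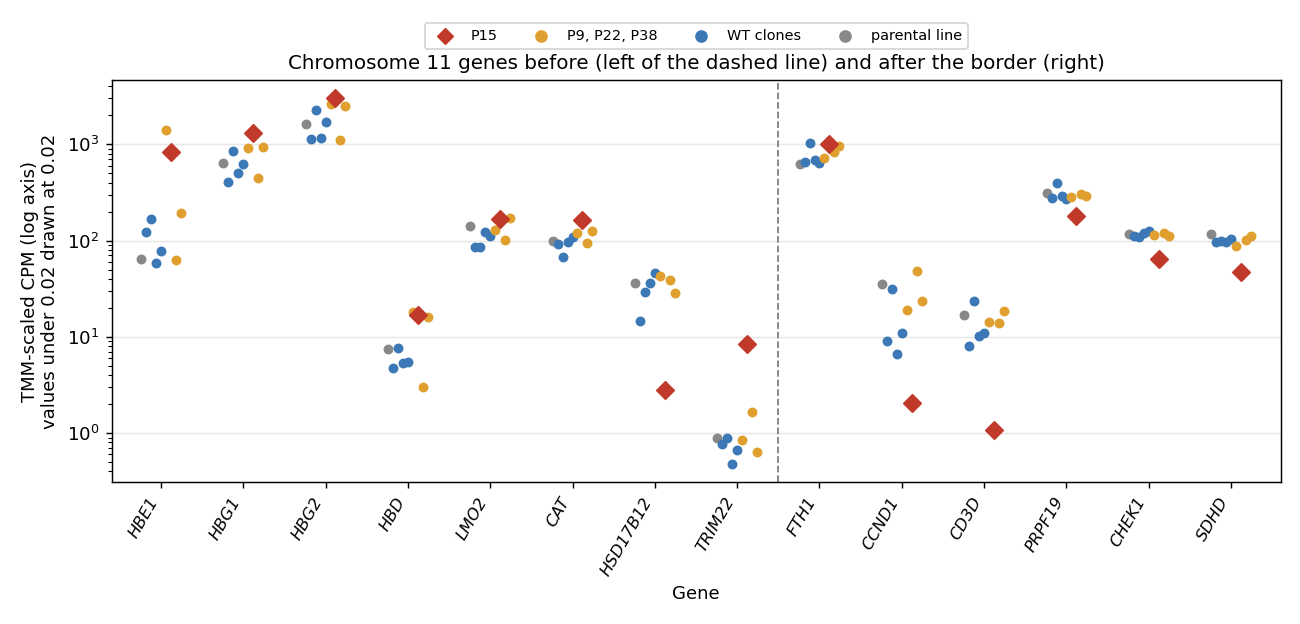
TMM-scaled CPM (log axis) of chromosome 11 genes in each of the 9 libraries, with P15 as red diamonds; the dashed line parts genes before (left) and after the border (right). HSD17B12, CCND1 and CD3D are lowest in P15, TRIM22 is highest, HBD is near the P9 value, and HBE1 lies between P9 and P38.

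Erythroid genes on chromosome 11 were read against their block. HBE1, embryonic ε-globin, was at 835 CPM in P15, 1394 CPM in P9, 62.3 CPM in P22 and 194 CPM in P38, and its log2 CPM difference lay 1.27 above the block median. P9 was higher than P15, so HBE1 does not set P15 apart. HBG1, fetal γ-globin, was at 1298 CPM in P15 and 915, 443 and 948 CPM in P9, P22 and P38, or 0.403 above the block median. HBG2 was at 3002 CPM against 2620, 1102 and 2497 CPM, 0.201 above it, and reads of these near-identical genes may be split between them. Without P22 the median fitted log2 difference of the 5 globins before the border was 0.07 in place of 0.54. It lay below the fitted median of 0.38 for all genes tested there in the same setting. HBD, δ-globin, was at 16.95 CPM in P15 and 18.1 CPM in P9. LMO2, a bridging factor of the TAL1 complex, lay -0.0801 from the block median, CAT (catalase) 0.0919, CD59 (complement inhibitor) 0.0830 and CD151 (Raph blood group) -4.91e-06. These 4 genes differed from the other P95H clones by about as much as their neighbours. After the border, FTH1, ferritin heavy chain, was at 1007 CPM in P15, against 728 to 954 CPM in those clones, 0.809 above its block. Reads of FTH1 may include those of BEST1 and of its many processed copies. Of the 14 erythroid genes tested on chromosome 11, 12 lie before the border, with a median fitted log2 difference of 0.44, beside 0.38 for all 403 genes tested there. Without P22 the erythroid median was 0.11, below the 0.38 of all genes there.

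Erythroid genes off chromosome 11 numbered 125 tested, from 8 lists. Of these, 89 lay above 0, and their median fitted log2 difference between P15 and the other P95H clones was 0.18, beside -0.01 over all 18482 tested genes off chromosome 11. P15 was above all 3 other P95H clones for 56 of 125 (44.8%) and below all 3 for 20 (16%), where the shares of all genes off chromosome 11 were 28.2% and 25.7%. It was above all 8 other libraries for 40 (32%) and below all of them for 7, beside 14.1% and 11.3% of all genes. Because P15 was chosen for such differences, these shares are a description. Without P22 the median was 0.14. More cells that express a gene and more RNA per cell cannot be told apart in these bulk libraries.

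Against the WT clones, which the choice of P15 did not use, 61 of the 125 genes (48.8%) lay above all 4 WT clones and 13 below, beside 24.8% and 21.8% of all genes off chromosome 11. The median log2 difference was 0.30 beside -0.01. edgeR called 0 of the 125 at an adjusted p of 0.05, where it called 0.0433% of all genes off chromosome 11, and at an unadjusted p under 0.05 it had 36 higher and 3 lower, beside 5.32% and 2.95% of those genes. DESeq2 called 9 higher and 1 lower, beside 0.92% and 0.536% of all genes off chromosome 11, and limma-voom called 14 higher and 1 lower, beside 2.01% and 0.303%. The genes DESeq2 called higher were AQP1, ERMAP, GYPB, GYPC, KLF13, PIM1, RHCE, SLC4A1 and UBE2H, and MYB was the one called lower. Leaving out W33 and P22 together was added after the data were seen. The edgeR count rose when W33, P22 or both were left out, for reasons that were not tested. It was 6 of 124 without W33, 4 of 123 without P22 and 34 of 124 without both, where edgeR called 0.292%, 0.138% and 2.92% of all genes off chromosome 11. The comparison with the WT clones shares the P15 library with the comparison among P95H clones. The 125 genes include SLC4A1, AQP1 and ALAS2, for which P15 was chosen, so the counts and shares given here are a description.

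**Figure D3:**
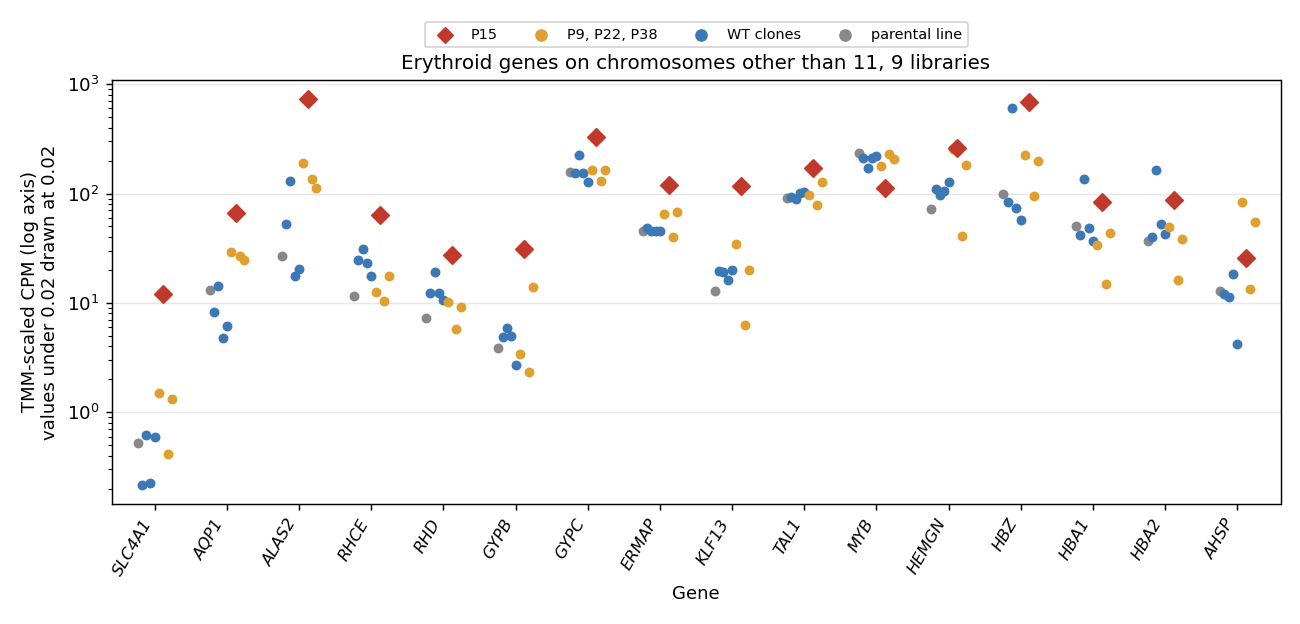
TMM-scaled CPM (log axis) of erythroid genes off chromosome 11 in each library, with P15 as red diamonds. SLC4A1, AQP1, ALAS2, RHCE, RHD, GYPB, GYPC and KLF13 are highest in P15, MYB is lowest, HEMGN is near the P9 value, and AHSP is below P9 and P38.

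Glycophorins and blood group proteins, the antigens and carriers of the red cell surface, had 17 of 22 members off chromosome 11 above 0 and a median of 0.83. P15 was above all 3 other P95H clones for 16 of 22 (72.7%) and above all 8 other libraries for 12 (54.55%). The shares of all genes off chromosome 11 were 28.2% and 14.1%. Members went the other way too, with P15 below all 3 for 3 of them, beside 25.7% of all genes. CD47 (log2 difference -0.70) and CD55 (-0.66) were below all 8 other libraries, beside 11.3% of all genes. RHCE, which carries the Rh C and E antigens, was at 63.6 CPM in P15, 12.7 CPM in P9, 10.4 CPM in P22 and 17.6 CPM in P38, and at 17.5 to 31.2 CPM in the WT clones. RHD was at 27.5 CPM in P15 and 10.3, 5.79 and 9.20 CPM in the same clones. The WT clones held 10.7 to 19.3 CPM of RHD, so both Rh genes were lower in the other P95H clones than in most WT clones and higher than either group in P15. Reads of RHCE and RHD may be split between these near copies, and TMEM50A and RSRP1 overlap them on the other strand. GYPB, glycophorin B, was at 30.8 CPM in P15 and 3.41, 2.33 and 13.9 CPM in P9, P22 and P38, and the related GYPE at 55.2 CPM against 9.95, 6.54 and 31.9 CPM. Their reads may be split between near copies. Both genes shared the order P15, P38, P9, P22, and their spread among the other P95H clones was wide. GYPC, a glycophorin of separate origin that anchors the membrane skeleton, was at 330 CPM in P15 and 165, 130 and 165 CPM in P9, P22 and P38. ERMAP, the Scianna antigen, was at 119 CPM against 64.7, 40.1 and 67.8 CPM, and SVBP overlaps it on the other strand. XK, which carries the Kx antigen, was at 26.2 CPM against 9.49, 5.76 and 6.44 CPM, but W42 held 20.7 CPM.

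The membrane skeleton list had 15 of 20 members above 0, a median of 0.27 and 9 members (45%) above all 3 other P95H clones. Of all genes off chromosome 11, 28.2% lay above all 3. The list median against the WT clones was 0.60. Above every WT clone lay 13 of 20 (65%), beside 24.8% of all genes off chromosome 11. SPTB, β-spectrin, was at 126 CPM in P15, 110 CPM in P9, 28.7 CPM in P22 and 53.9 CPM in P38. P15 was thus close to P9 for SPTB. TMOD1, which caps actin filaments, was at 153 CPM in P15 and 92.5, 52.7 and 103 CPM in P9, P22 and P38. DMTN, dematin, was at 33.2 CPM against 22.4, 6.86 and 10.6 CPM. SLC2A1, the glucose transporter of red cells, was at 257 CPM against 135, 103 and 160 CPM. MPP1 went the other way and was at 217 CPM in P15, below all 8 other libraries (258 to 323 CPM). Without P22, the lowest clone for most of these genes, the median of the list was 0.12.

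Heme synthesis genes showed smaller differences apart from ALAS2. Of 12 members off chromosome 11, 9 lay above 0 with a median of 0.16 (0.105 without P22). P15 was above all 3 other P95H clones for 5 of the 12 (41.7%), beside 28.2% of all genes off chromosome 11. CPOX, coproporphyrinogen oxidase, was at 69.2 CPM in P15 and 52.2, 32.8 and 47.1 CPM in P9, P22 and P38. PPOX, the next enzyme, was at 88.2 CPM against 80.3, 34.4 and 70.4 CPM. UROD was at 493 CPM in P15, against 385 to 576 CPM in those clones, with no separation. For iron genes 9 of 19 lay above 0 and the median was -0.03 (-0.08 without P22). Among them SLC25A37, the mitochondrial iron importer mitoferrin, was at 314 CPM in P15 and 242, 110 and 208 CPM in P9, P22 and P38. SLC40A1, the iron exporter ferroportin, was at 46.9 CPM against 74.6, 74.2 and 84.6 CPM. W33 held 36.4 CPM of SLC40A1, so P15 was not the lowest library.

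The α-like globins lie on chromosome 16. HBZ, embryonic ζ-globin, was at 680 CPM in P15, 226 CPM in P9, 94.3 CPM in P22 and 199 CPM in P38, and at 605 CPM in W33 against 57.5 to 83.8 CPM in the other WT clones. HBA1 was at 83.8 CPM in P15 and 34.02, 15.01 and 43.5 CPM in those clones, and W33 held 135 CPM. HBA2 was at 87.7 CPM against 49.2, 16.1 and 38.4 CPM, with 164 CPM in W33, and its reads may be split with HBA1. All 4 tested α-like genes lay above 0, with a median of 1.395, while W33 exceeded P15 for HBA1 and HBA2. AHSP, the chaperone of free α-globin, was at 25.6 CPM in P15, 84.5 CPM in P9, 13.5 CPM in P22 and 55.2 CPM in P38. P15 thus lay inside the range of the other P95H clones for AHSP.

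Transcription factors of the lineage were mostly close to the other clones, with 15 of 21 off chromosome 11 above 0 and a median of 0.12. KLF13, a Krüppel-like factor, was at 117 CPM in P15, 34.2 CPM in P9, 6.33 CPM in P22 and 20.1 CPM in P38, and at 16.2 to 20.04 CPM in the WT clones. TAL1 was at 171 CPM in P15 and 97.2, 78.5 and 126 CPM in P9, P22 and P38. MYB, which keeps precursors dividing and is shut off as red cells mature, was at 112 CPM in P15 and 179, 228 and 205 CPM in those clones. Its WT clones held 170 to 222 CPM, so P15 was lowest of all libraries. GATA1 was at 254 CPM in P15, against 214 to 268 CPM across P9, P22 and P38, and KLF1 at 136 CPM against 113 to 131 CPM.

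Late differentiation genes had 17 of 24 members off chromosome 11 above 0 and a median of 0.15. UBE2H, a ubiquitin-conjugating enzyme of maturing red cells, was at 60.5 CPM in P15 and 33.5, 27.8 and 27.2 CPM in P9, P22 and P38. PINK1, a kinase that marks mitochondria for removal, was at 47.3 CPM against 18.8, 27.99 and 21.3 CPM. BNIP3L, a mitophagy receptor of reticulocytes, was at 149 CPM against 88.6, 102 and 77.2 CPM. P15 was the highest of all 9 libraries for each of these genes. SLC6A9, a glycine transporter, was at 32.8 CPM against 16.9, 7.82 and 14.4 CPM, and PIM1, a survival kinase, at 538 CPM against 333, 361 and 301 CPM. TRIM10, a red cell RING finger gene, had no count in P15 and was at 0.306, 0.507 and 0.598 CPM in those clones, at least 5.08-fold lower in P15 at the floor of 3 counts per library. HEMGN, hemogen, was at 262 CPM in P15, 254 CPM in P9, 40.9 CPM in P22 and 183 CPM in P38.

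Of aquaporins and carbonic anhydrases, CA1 was at 3.12 CPM in P15 and 2.56, 1.28 and 3.55 CPM in P9, P22 and P38, above the WT clones (0 to 0.889 CPM) in all 4. CA2 was at 15.9 CPM in both P15 and P9 and 0.239 CPM in P22. AQP3 was at 90.6 CPM in P15 and 32.8, 44.7 and 113 CPM in the other P95H clones. AQP1 was thus the 1 of 4 tested genes of this list above all 3 other P95H clones (25%), beside 28.2% of all genes off chromosome 11.

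Markers of other blood cells were measured beside the erythroid genes. Mast cell and basophil markers summed to 84.9 CPM in P15, 91.8 to 224 CPM in the other P95H clones and 105 to 125 CPM in the WT clones, and 3 of 14 were at 0 in P15. All 6 tested members off chromosome 11 lay below 0 with a median of -2.22, and the value was -0.38 without P22. KIT was at 0.432 CPM in P15, 1.15 CPM in P9, 35.9 CPM in P22 and 1.53 CPM in P38. ENPP3 had no count in P15, at least 22.04-fold below the mean of the other P95H clones. That mean came mostly from P22 (5.46 CPM), with 0.23 CPM in P9 and 0.43 CPM in P38. The WT clones held 0 to 0.0364 CPM of ENPP3, under the floor. Lymphoid markers summed to 8.46 CPM in P15, against 24.95 to 26.2 CPM across P9, P22 and P38. The CD3 genes, which lie after the border, made up most of that difference. Of 15 lymphoid markers 5 were at 0 in P15, and 1 of these was at 0 in every library. Myeloid markers summed to 105 CPM in P15, against 70.2 to 209 CPM across P9, P22 and P38. Megakaryocyte and platelet markers summed to 302 CPM in P15, against 352 to 369 CPM in those clones. Of these 23 markers 7 were at 0 in P15, and 3 of the 7 were at 0 in every library. Fibroblast and epithelium markers summed to 1024 CPM against 1072 to 1504 CPM. The part of these marker levels in the erythroid values was not tested.

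Cholesterol synthesis showed a different relation to the WT clones. Of 22 members off chromosome 11, 21 lay above 0 in P15 against the other P95H clones, with a median of 0.50. P15 was above all 3 for 18 (81.8%), beside 28.2% of all genes off chromosome 11. In the comparison with the WT clones the median was 0.02. There 6 of 22 (27.3%) lay above and 2 below every WT clone, beside 24.8% and 21.8% of all genes off chromosome 11. LSS, lanosterol synthase, was at 108 CPM in P15, 75.01 CPM in P9, 66.4 CPM in P22 and 69.7 CPM in P38, and at 96.9 to 122 CPM in the WT clones. HSD17B7, a sterol ketoreductase, was at 12.7 CPM against 8.76, 6.83 and 6.81 CPM, with 14.8 to 15.9 CPM in the WT clones. FDFT1, squalene synthase, was at 303 CPM against 177, 144 and 193 CPM, with 235 to 291 CPM in the WT clones. P15 was within or near the WT range for these 3 enzymes. HMGCS1, which makes HMG-CoA, was at 523 CPM in P15, above every other library (186 to 351 CPM). DHCR7 lies after the border on chromosome 11 and was at 79.2 CPM in P15, 0.684 above its block.

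Amino acid and ATF4 response genes had 20 of 24 members off chromosome 11 above 0 and a median of 0.46. For 16 members (66.7%) P15 was above all 3 other P95H clones, beside 28.2% of all genes off chromosome 11. TRIB3, a target of ATF4, was at 114 CPM in P15 and 75.4, 44.4 and 60.6 CPM in P9, P22 and P38. SESN2, a leucine sensor, was at 61.1 CPM against 38.3, 34.97 and 34.2 CPM, although W36 held 59.0 CPM. CEBPB, a stress-induced transcription factor, was at 25.5 CPM against 13.8, 16.5 and 16.1 CPM. SLC1A5, a glutamine transporter, was at 418 CPM against 328, 299 and 285 CPM, with 407 CPM in W33. The median of the list was 0.24 against the WT clones.

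Interferon-stimulated genes off chromosome 11 lay above 0 for 17 of 18 members, with a median of 0.65. P15 was above all 3 other P95H clones for 10 (55.6%), beside 28.2% of all genes off chromosome 11. Set against the WT clones, the list had a median of 1.31. Above every WT clone lay 15 of 18 (83.3%), beside 24.8% of all genes off chromosome 11. OAS3, a sensor of double-stranded RNA, was at 13.6 CPM in P15, 5.40 CPM in P9, 9.01 CPM in P22 and 2.56 CPM in P38. Of 7 members before the border, 6 lay above 0 with a median of 0.94, beside 0.38 for all tested genes there. IRF7, an interferon regulatory factor, was at 9.32 CPM against 4.25, 3.52 and 3.45 CPM. IFITM3, an antiviral membrane protein, was at 252 CPM in P15 and 214 CPM in P22 but 10.4 CPM in P9 and 15.6 CPM in P38. IFITM2 was at 14.6 CPM in P15, against 27.3 to 99.97 CPM across P9, P22 and P38, so the members at this locus did not move as one.

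Cell cycle, heat shock and splicing lists had medians near 0 off chromosome 11: 0.01 for S phase, 0.09 for G2/M phase, 0.04 for heat shock and -0.04 for splicing factors. Without P22 they were -0.00388, 0.00329, 0.0581 and -0.0304 in that order. After the border, 610 of all 698 tested genes lay below 0. So did both S phase members, all 3 splicing factors and 3 of 4 heat shock members there. CRYAB, a small heat shock protein, was the exception at a log2 difference of 0.63. CHEK1, a DNA damage checkpoint kinase, was at 63.9 CPM in P15 and 115, 120 and 113 CPM in P9, P22 and P38. Among other genes after the border, SDHD, a subunit of succinate dehydrogenase, was at 47.3 CPM against 87.3, 102 and 111 CPM. EED, a subunit of the polycomb complex PRC2, was at 27.1 CPM against 43.9, 61.9 and 56.5 CPM. From the splicing list, PRPF19, a ubiquitin ligase of the spliceosome, was at 181 CPM against 287, 307 and 288 CPM, and from the heat shock list STIP1, a co-chaperone of HSP90, was at 300 CPM against 440, 410 and 442 CPM. P15 was the lowest of the 9 libraries for each of these 5 genes, as it was for 387 of all 698 genes tested after the border.

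Across all genes, edgeR called 1 of 20344 between P15 and the other P95H clones (0.00492%), and 1582 had an unadjusted p under 0.05 (7.78%). DESeq2 called 301 (1.48%) and limma-voom 68 (0.334%), and off chromosome 11 they called 191 (1.03%) and 49 (0.265%), beside 1 (0.00541%) with edgeR. Without W33 and P22 edgeR called 292. P15 was chosen on this contrast and nothing is read from these counts. The one edgeR call was AC079922.1, a processed pseudogene on chromosome 2. It was at 51.2 CPM in P15, 1.03 CPM in P9, 0.776 CPM in P22 and 0.863 CPM in P38, and at 1.02 to 1.82 CPM in the WT clones. Its neighbours CHCHD5 (15.1 CPM in P15, 14.7 to 17.1 CPM in the other P95H clones) and SLC20A1 (160 CPM against 148 to 197 CPM) did not stand apart. A processed pseudogene can take reads of its parent gene, so the source of these reads is uncertain.

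Since edgeR called no protein-coding gene off chromosome 11 in that contrast, genes called there by both DESeq2 and limma-voom are named in its place. Both tools called 38 genes of any kind there (0.206%). With at least 1 CPM there were 26 protein-coding genes higher and 7 lower in P15, and the 12 furthest up and all 7 lower ones were taken. These genes also had to have P15 outside the range of the other 3 P95H clones, so that part of their pattern was fixed by the rule. GDA, guanine deaminase, was at 12.2 CPM in P15, against 0.0332 to 0.119 CPM across P9, P22 and P38, near the floor, with 2.68 CPM in the parental line. IFT27, a small GTPase of cilia, was at 6.92 CPM against 0.344, 0.836 and 0.266 CPM. ANGPTL4, an inhibitor of lipoprotein lipase, was at 12.9 CPM against 2.03, 2.72 and 1.36 CPM. P15 was above all 8 other libraries for GDA, IFT27 and ANGPTL4. CATSPERG, a subunit of a sperm calcium channel, was at 8.92 CPM against 1.65, 1.85 and 1.86 CPM. RIMS3, a presynaptic protein, was at 28.6 CPM against 6.39, 6.74 and 5.94 CPM. LRP1, an endocytic receptor, was at 44.3 CPM against 12.7, 10.3 and 9.53 CPM. The other P95H clones lay close together for RIMS3 and LRP1 and P15 far above them. YPEL3, a growth-suppressing p53 target, was at 13.6 CPM against 3.52, 2.51 and 3.22 CPM. VSTM4, an immunoglobulin-domain membrane protein, was at 45.5 CPM against 10.5, 10.4 and 10.2 CPM. MALT1, a protease of NF-kB signalling, was at 72.1 CPM against 24.3, 13.7 and 22.3 CPM. HLA-F, a non-classical class I molecule, was at 7.13 CPM against 1.80, 1.70 and 2.46 CPM. LRP1 may share reads with STAT6 and CATSPERG with AC005625.1 on the other strand.

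The lower genes included CLEC11A, a growth factor for blood progenitors, at 14.5 CPM in P15 and 47.7, 68.2 and 54.6 CPM in P9, P22 and P38. SRGN, the granule proteoglycan serglycin, was at 13.6 CPM against 53.1, 68.6 and 47.8 CPM. STXBP5, which restrains vesicle fusion, was at 58.3 CPM against 155, 178 and 127 CPM. P15 was below all 8 other libraries for these genes. CAVIN2, a caveola coat protein, was at 40.4 CPM against 121, 85.1 and 91.9 CPM, and ATP2B4, a plasma membrane calcium pump, at 29.7 CPM against 63.6, 65.5 and 63.0 CPM. ARHGAP6, a GTPase-activating protein, was at 24.9 CPM against 49.4, 52.1 and 56.4 CPM, and CMBL, a hydrolase, at 129 CPM against 252, 292 and 226 CPM.

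**Figure D4:**
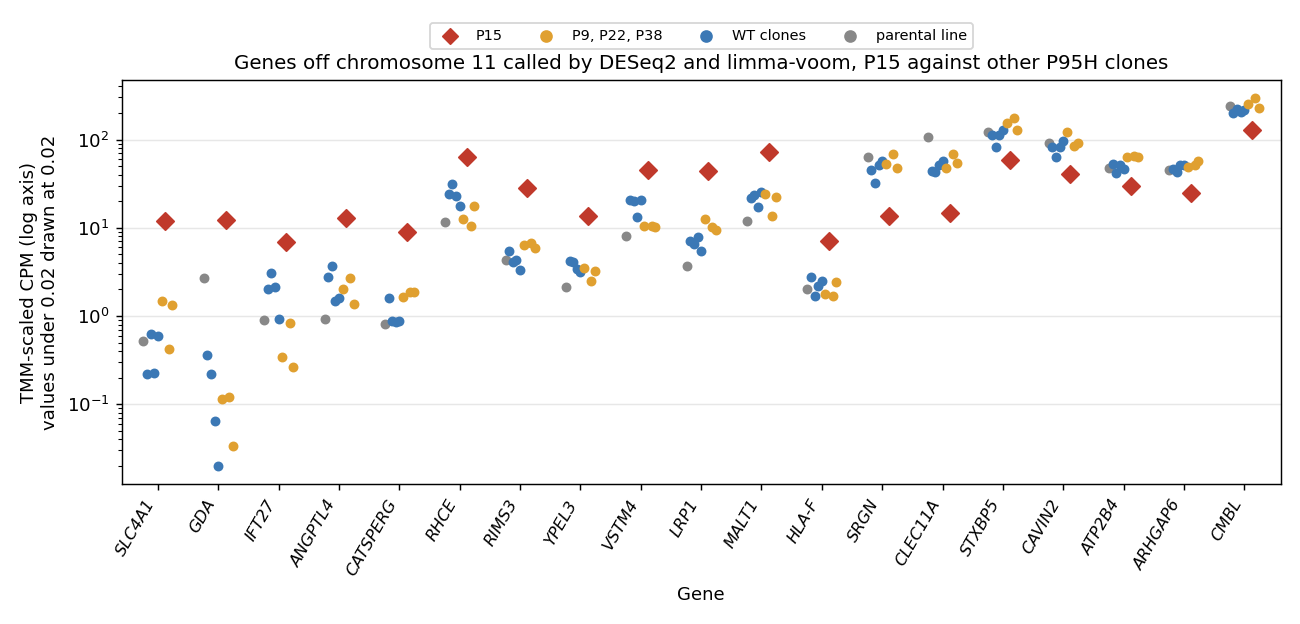
TMM-scaled CPM (log axis) of 12 genes higher and 7 genes lower in P15 among those called by both DESeq2 and limma-voom off chromosome 11, in each of the 9 libraries. The P15 diamonds lie above every other library for the first 12 genes and below every other library for the last 7.

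Against the WT clones, edgeR called 9 genes (0.0442%), all higher in P15, and 8 of them lie off chromosome 11. LRP1 rose by a log2 difference of 2.71 (SE 0.22), RIMS3 by 2.73 (SE 0.25) and CATSPERG by 3.07 (SE 0.35). These 3 genes were named above for their level in the P15 library, which this comparison uses again. Their values are a description, and no p-value is given for them. The other calls reuse that library too, so they are also a description. PRXL2B, a prostaglandin synthase, was at 127 CPM in P15 against 30.01 to 38.7 CPM in the WT clones and 40.5 to 46.9 CPM across the other P95H clones (edgeR adjusted p = 0.0104 against WT). MMEL1, a metalloprotease next to it, was at 33.8 CPM against 9.19 to 11.5 CPM and 10.8 to 11.7 CPM (edgeR adjusted p = 0.0254). The 2 overlap on opposite strands, so their reads may not be told apart where they overlap. TNFRSF14-AS1, 3 tested genes away on chromosome 1, was at 28.8 CPM in P15 against 0.764 to 2.24 CPM in the WT clones (edgeR adjusted p = 0.0339). TNFRSF14 itself, a receptor of lymphocytes, was at 30.4 CPM against 1.82 to 4.68 CPM (edgeR adjusted p = 0.0530). For both genes of this pair the other P95H clones, at 4.58 to 16.8 CPM, also lay above all WT clones. TPP1, a lysosomal peptidase, was the call before the chromosome 11 border, at 286 CPM in P15, 94.8 to 124 CPM in the WT clones and 134 to 152 CPM across the other P95H clones (edgeR adjusted p = 0.0461).

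The remaining calls were AC079922.1, already named above from the contrast among P95H clones, and AC005281.1. AC005281.1 is antisense to SCIN, which encodes the actin-severing protein scinderin. AC005281.1 was at 9.48 CPM in P15, 0.498 CPM in P9 and 0 to 0.0996 CPM in the other 7 libraries. SCIN was at 41.98 CPM in P15, 10.3 CPM in P9, 0.0597 CPM in P22 and 1.13 CPM in P38, and at 0.109 to 1.25 CPM in the WT clones. Both had the same order of P15 and P9 above the rest, and with the strand setting unknown their reads may not be told apart where they overlap. With 92 genes called without W33 and 30 without P22, the number of calls against the WT clones rests on these libraries, and it was 2 without P38.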

How the data were processed

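Gene expression was measured by poly(A) RNA-seq in 9 K562 libraries: the parental line, 4 WT clones and 4 P95H clones. The deposited values are read counts per Ensembl gene, made by the authors with bcl2fastq, TopHat2 2.0.4 and HTSeq 0.6.1p1 on GRCh37, per the submitters' processing notes, with no normalization. Strand and overlap settings of the counting were not given in the sources used here, so a gene and its antisense partner may share reads. Per the file values, 43.3 to 44.2% of listed reads were in genes, and rows that name no gene (47.6 to 49.1% no feature, 2.23 to 2.55% ambiguous, 5.06 to 6.06% not unique) were left out of library sizes. Of 63677 gene IDs, 52526 had a symbol in GENCODE 29 (GRCh38), which was used for names, chromosomes and gene order only; 761 tested genes without a position are in neither part. Promoters came from a RefSeq table (GRCh38.p14).

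Counts of 8 clones in 3 groups (WT, other P95H, P15) were filtered with filterByExpr, scaled by TMM and fitted with edgeR 4.0.16 (robust quasi-likelihood, R 4.3.3), with Benjamini-Hochberg adjustment at 0.05. The biological coefficient of variation was 27.6% with 5 residual degrees of freedom. SE is the log2 difference divided by the square root of F. CPM are TMM-scaled, log2 CPM had 2 as prior count, and block medians a mean of at least 5 CPM. The edgeR step was tested on simulated data. DESeq2 1.42.0, limma 3.58.1 (voom with quality weights), RLE scaling, scaling from genes off chromosome 11, 2 other filters, the 4 P95H clones alone, the parental library added and each clone left out were alternatives; leaving out W33 and P22 together was added after seeing the data. The P15 clone, the 23 lists (494 of 497 entries matched) and the tests were chosen with earlier results of these data known. Named were the given markers, the 12 highest and lowest called protein-coding genes off chromosome 11, 6 in each part of chromosome 11, 4 per list by p, all erythroid genes tested on chromosome 11 and genes called against WT. No protein-coding gene off chromosome 11 met the second of these in the P95H contrast, so genes past the threshold in DESeq2 and in limma-voom were used. For them and for the 6 in each part of chromosome 11, P15 also had to lie outside the range of the other 3 P95H clones. The DESeq2 and limma-voom genes, the promoters shown and further list members and neighbours named in the text were chosen after their values were seen. A few genes that these rules would name are not reported here.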

Additional observations from a re-analysis of the deposited data

Results flagged for a closer look

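Within each group of 4 clones, the gap between the most distant clone and its nearest neighbour was divided by the range of the group, and values above Dixon's critical value for 4 samples at 95% are given here for the named genes. Chance alone gives about 1 such value in 20 groups. P15 was chosen because it stands apart, so its own entries support nothing. Among the P95H clones P15 was the high clone for NOX5 (0.977), SLC4A1 (0.908), AQP1 (0.895), ALAS2 (0.874), GDA (0.993), IFT27 (0.914), ANGPTL4 (0.882) and CATSPERG (0.971). The same held for RHCE (0.865), RIMS3 (0.965), YPEL3 (0.909), VSTM4 (0.994), LRP1 (0.91), HLA-F (0.861), TRIM22 (0.869) and CD7 (0.88). It also held for TRIM21 (0.879), IRF7 (0.864), SESN2 (0.848), PRXL2B (0.926), MMEL1 (0.962), TPP1 (0.877), AC005281.1 (0.95) and AC079922.1 (0.995). P15 was the low clone for ATP2B4 (0.929), CHEK1 (0.864) and PRPF19 (0.839).

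P22 was the high P95H clone for PRG2 (0.899), JAML (0.976), SPI1 (0.922), ENPP3 (0.921), KIT (0.969) and NCF4 (0.938). Most of these were named here through the mast cell, myeloid or NADPH oxidase list, so their cell type was partly set by that choice. P22 was the low P95H clone for KIF20A (0.852) and HBD (0.874). Among the WT clones W33 was the high clone for CCND1 (0.83), HBA1 (0.881), HBZ (0.952), HBA2 (0.902), TMOD1 (0.861), CA1 (0.856), ITGA2B (0.84), CD3E (0.909), FEN1 (0.895), CCNB2 (0.866), PRPF19 (0.843) and FTH1 (0.894), a set that includes the 3 α-like globins named, and the low one for SLC2A1 (0.893) and AC005281.1 (0.871). W19 was the high clone for CATSPERG (0.968), ERMAP (0.84), ENPP3 (1) and TPP1 (0.918), and W36 the low clone for VSTM4 (0.962). The ENPP3 value in W19 rests on 0.0364 CPM with the other WT clones at 0, and the AC005281.1 value in W33 on 0 against 0.0321 to 0.0368 CPM, both under the floor of 3 counts.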

How the results depend on the processing

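No paired analysis was possible because the groups compared share no replicate numbers. The chromosome 11 medians kept their direction under every alternative run (0.404 to 0.451 before and -0.542 to -0.511 after the border). Counts of called genes did not, and for these the cause was not tested. Between P15 and the other P95H clones edgeR called 1 gene, 25 with no filter, 301 with DESeq2, 68 with limma-voom, 2 in the 4 P95H clones alone, 1 to 11 with 1 clone left out (11 without W33) and 292 (176 higher, 116 lower) without W33 and P22. Off chromosome 11 these counts were 1, 22, 191, 49, 2, 1 to 9 (9 without W33) and 184 (137 higher, 47 lower). Against the WT clones they were 9, 53 with no filter, 407 (200 higher, 207 lower), 581 (430 higher, 151 lower), 2 to 92 (92 without W33, 30 without P22, 5 without W42 or without P9, 2 without P38) and 744 (457 higher, 287 lower). Off chromosome 11 they were 8, 47, 269, 428, 2 to 54 (54 without W33, 25 without P22, 5 without W42 or without P9, 2 without P38) and 526. Of the 125 erythroid genes off chromosome 11, 30 had an unadjusted edgeR p under 0.05 against the other P95H clones (24 higher, 6 lower). Among all 18482 genes tested off chromosome 11, 808 were higher and 410 lower at that level. P15 was chosen on this contrast, so these numbers are a description. At an adjusted p of 0.05 edgeR called 0 of the 125 against the other P95H clones, and 1 with no filter. The count was 10 with DESeq2, 4 with limma-voom, 0 with each clone left out in turn and 15 without W33 and P22. RLE scaling, scaling from genes off chromosome 11, the stricter filter and adding the parental library kept these counts within 1.5 times. Log2 differences of named genes between P15 and the other P95H clones that turned with 1 clone left out ranged from -0.4995 to 0.9986 for CA2, -0.4744 to 1.241 for HBB, -0.01551 to 0.8203 for HBD, -0.05975 to 1.141 for SOX6 and -0.003768 to 0.308 for SLC43A1, below 0 without P22 in all 5 and for HBB also without P38 (-0.06104). Without W33 and P22 CA2 was at -0.4946, HBB at -0.463, HBD at -0.008494 and SOX6 at -0.05575. All other signs held in the settings that kept the gene. With 1 library for P15, low-count genes such as HBB and TRIM10 are limited by depth.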

Other observations

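Megakaryocyte and platelet genes, a lineage that shares progenitors with red cells, had 8 of 13 tested members below 0 in P15 against the other P95H clones, with a median log2 difference of -0.26 (-0.44 without P22), beside 0.11 against the WT clones. Of all genes off chromosome 11, 51.4% lay below 0. ITGA2B, the platelet integrin chain, was at 12.1 CPM in P15 and 19.2, 45.1 and 20.5 CPM in P9, P22 and P38, while the WT clones held 8.69 to 16.7 CPM. RUNX1, a transcription factor of that lineage, was at 59.7 CPM in P15, below all 8 other libraries (66.1 to 97.8 CPM). CD9, a tetraspanin, went the other way and was at 22.6 CPM in P15 against 6.06 to 13.2 CPM. ITGAM, a myeloid integrin chain, was at 24.97 CPM in P15 and 27.3 CPM in P22 but 6.39 CPM in P9 and 2.86 CPM in P38. VIM, vimentin, was at 262 CPM in P15, below all 8 other libraries (321 to 967 CPM), and FN1, fibronectin, was at 66.6 CPM in P15, against 14.6 to 34.6 CPM across P9, P22 and P38, with 78.6 to 243 CPM in the WT clones.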
